A study of Mus musculus with 6 samples.

Results

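The genes described are those of the cytosolic ribosomal proteins of the mouse, the Rpl genes of the large subunit and the Rps genes of the small subunit, with Rplp0, Rplp2 and Rpsa. They were chosen by symbol from the array's annotation, and only probe sets that name a single gene were used. This gave 41 genes of the 12393 measured, 22 of the large and 19 of the small subunit, read by 90 of the 22626 probe sets tested. Of 76 mouse symbols of this form, 27 occur only in probe sets that name several genes, mostly the gene and its pseudogene copies, and 8 in no named probe set, so Rpl5, Rpl10, Rplp1 and Rps27a have no value of their own here. The 6 arrays measured total RNA of a mouse embryonic fibroblast line that the labels call PPP3R1, a symbol shared with the regulatory subunit of the phosphatase calcineurin, without saying what was done to that gene. 3 arrays were of cells starved for 6 h and 3 of control cells kept in normal medium. What the starvation medium lacked is not stated in the labels. By the titles and the design text the control is the PPP3R1 line itself, by the culture and treatment descriptions it is wild-type fibroblasts, and the groups follow the titles. The labels call the arrays biological replicates without saying that they came from separate cultures, and the spread behind each p-value may therefore be technical.

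Cytosolic ribosomes consist of a large and a small subunit, each built in the nucleolus from ribosomal RNA and a full set of ribosomal proteins, most of them needed in equal numbers. Ribosomal protein mRNAs are among the most abundant of a growing cell and are long lived, and most of them begin with a C followed by a run of pyrimidines, the terminal oligopyrimidine or TOP tract. In mammalian cells deprived of amino acids or growth factors, the kinase complex mTORC1 is switched off and TOP mRNAs leave the polysomes, with the RNA-binding protein Larp1 holding and stabilising them. That control acts on translation, which an array of total RNA does not measure.

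The first bases of the transcripts are shown because the TOP tract is the feature that ties these genes to nutrient supply. RefSeq (GRCm38.p6) gave promoters for 36 of the 41 genes, with 42 annotated start sites. A TOP start, taken as a C at the annotated first base followed by at least 4 pyrimidines without a break, was present at 8 of the 42 starts (19.0%), against 2.51% of all 32851 starts in the table. The 8 genes are printed 5′ to 3′ with 10 bases before the start and 20 bases from it, and the capitals mark the tract from the first transcribed base.
Rpl14 (chr9:120571507-120571536, plus strand): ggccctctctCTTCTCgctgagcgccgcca
Rpl35 (chr2:39005112-39005141, minus strand): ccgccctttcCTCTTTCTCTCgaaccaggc
Rpl38 (chr11:114668570-114668599, plus strand): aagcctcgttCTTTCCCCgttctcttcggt
Rplp2 (chr7:141447641-141447670, plus strand): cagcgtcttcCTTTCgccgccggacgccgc
Rps6 (chr4:86857348-86857377, minus strand): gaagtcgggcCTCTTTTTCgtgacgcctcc
Rps10 (chr17:27635225-27635254, minus strand): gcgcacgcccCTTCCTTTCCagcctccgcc
Rps18 (chr17:33955646-33955675, minus strand): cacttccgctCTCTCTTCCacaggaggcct
Rps27 (chr3:90213629-90213658, minus strand): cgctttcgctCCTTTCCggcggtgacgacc
A tract that begins a few bases beside the annotated first base is not counted by this rule, so the other 28 genes may carry one that is not seen here. The tract ran for 5 to 11 bases in the 8 genes.

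A second set shows the sequence CCGGAAG, the core bound by ETS factors such as GABP, since Gabpb1 was among the regulators measured. It lay on either strand between 250 bases before and 50 bases after the start at 18 of the 42 starts (42.9%), against 8.86% of all starts. The other motifs searched in the same windows were AAGATGG, a form of the YY1 motif, at 14.3% against 6.34%, the GC box GGGCGG at 52.4% against 35.7%, the E-box CACGTG at 11.9% against 7.15% and TATAAA at 11.9% against 13.6%, each on either strand. CCGGAAG and AAGATGG can overlap by the letters AAG, and a match was then counted for each. 4 genes with the ETS core close to the start, and with at least 1 probe set that fell, are printed from 100 bases before the start to 20 bases from it, with the core on either strand in capitals.
Rpl37 (chr15:5116513-5116632, plus strand): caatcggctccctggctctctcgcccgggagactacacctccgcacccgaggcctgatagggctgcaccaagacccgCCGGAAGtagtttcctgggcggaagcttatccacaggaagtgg
Rpl41 (chr10:128549149-128549268, minus strand): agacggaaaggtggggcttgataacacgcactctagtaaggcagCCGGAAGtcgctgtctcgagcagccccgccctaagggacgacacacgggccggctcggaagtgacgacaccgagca
Rps6 (chr4:86857348-86857467, minus strand): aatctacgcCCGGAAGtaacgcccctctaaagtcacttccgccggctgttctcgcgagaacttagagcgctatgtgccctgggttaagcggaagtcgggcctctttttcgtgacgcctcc
Rps10 (chr17:27635225-27635344, minus strand): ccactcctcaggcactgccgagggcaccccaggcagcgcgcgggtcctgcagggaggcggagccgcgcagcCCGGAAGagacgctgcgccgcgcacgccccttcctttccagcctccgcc

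The deposited values were log2 RMA values, and each difference is the mean of starved minus that of control arrays (log2) with its moderated standard error, tested by limma with Benjamini-Hochberg adjustment over all 22626 probe sets at 0.05. Fibroblast markers had a median level of 11.7 (log2), while those of leukocytes (4.62), epithelium (4.42) and endothelium (3.52) lay below the level of 5 used as the limit for dim probe sets. Of the fibroblast markers 5 of 16 fell and 6 rose, with levels that summed to 177.1 to 177.7 in starved and 179.7 to 180.5 in control arrays. Of the leukocyte markers 5 of 9 were dim in both groups, Ptprc (3.05) among them, while Cd14 (8.18), Cd68 (6.47), Lyz2 (6.19) and Laptm5 (5.09) were not. Cd14 fell by 0.32, Cd68 rose by 0.43 and Lyz2 by 0.24, and the levels of the list summed to 44.1 to 44.3 in starved and 43.3 to 44.8 in control arrays. Of the epithelial markers 6 of 8 were dim, Epcam (4.48) among them, Krt19 (5.37) and Krt8 (5.09) were not, and the dim Cdh1 rose by 0.50, with sums of 35.1 to 35.5 in starved and 33.5 to 34.9 in control arrays. All 7 endothelial markers were dim and Pecam1 rose by 0.24, with sums of 25.6 to 27.5 in starved and 25.8 to 26.9 in control arrays. The part of these markers in the differences below was not tested. Array medians lay between 6.74 and 6.78, and arrays correlated at 0.998 within a group and at 0.986 to 0.988 between groups. The 3′ minus 5′ signal of Gapdh, a sign of RNA integrity, was -0.12, -0.15 and -0.11 in starved and -0.000401, -0.11 and -0.04 in control arrays, so it moved with the group, and its part in the differences below was not tested. That of Actb was 0.08, 0.04 and 0.03 in starved and 0.08, 0.03 and 0.05 in control arrays. No array batch is used here, and an array batch and starvation cannot be told apart.

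Most ribosomal protein probe sets read slightly lower in starved cells, and few differed by much. Of the 90 probe sets, 77 had a negative difference, 22 passed the test as lower (24.4%) and 1 as higher (1.11%). Over all probe sets 19.2% were lower, 20.3% higher and 39.5% passed in either direction, so the share of falls was near that of the whole array and the share of rises was below it. The median difference was -0.11, a level 7.29% lower in starved cells, against a median of -0.01 over all probe sets. In 60 of the 90 probe sets (66.7%) all 3 starved arrays lay below all 3 control arrays, where 25.0% of all probe sets did so, and in 5 (5.56%) they lay above, against 25.4%. In whole-cell RNA a lower value cannot tell fewer cells that express a gene apart from less RNA per cell, and RMA's quantile step would hide a fall shared by most transcripts.

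Counted by gene, with the brightest probe set standing for each, 8 of 41 genes fell (19.5%) and 0 rose, against 20.1% and 20.8% of all genes. At an unadjusted p under 0.05, 14 of the 41 were lower (34.1%) and 1 was higher, Rps27, against 23.8% and 24.2% of all genes. The median was -0.09 in both subunits and -0.01 over all genes, and 37 of the 41 genes had a negative difference. All starved arrays lay below all control arrays in 30 genes (73.2%), against 26.2% of all genes. The genes that fell were Rpl12, Rpl37, Rpl14 and Rpl22 in the large subunit and Rps6, Rps14, Rps3 and Rps19 in the small. Rpl12, Rpl14, Rps6, Rpl37 and Rpl22, which fell most, were read at mean levels of 5.91, 7.83, 9.13, 10.3 and 12.4. The other falls were read at 13.3 to 13.8, and most members at 13 or over. The part of probe brightness in the size of these falls was not tested. With any probe set counted, 17 genes fell, and no gene had probe sets that passed in opposite directions. The share of all genes under that rule was not counted, and 21 of the 41 members have more than 1 probe set. Rpsa and Rpl41 are among the 17 only through probe sets with a mean level under 5 (3.30 and 4.97). The call depends on how the spread is estimated, since with an intensity trend and robust moderation 51 of the 90 probe sets were lower (56.7%), against 20.9% of all probe sets. Without starved array 1, 2 or 3 the count of lower probe sets was 18, 10 or 13, and without control array 1, 2 or 3 it was 11, 12 or 14, compared with 22 from all 6 arrays. Those counts are 11.1% to 20% of the members, against 16.3% to 17.5% of all probe sets, and without starved array 1 alone was the members' share the higher one.

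**Figure D1:**
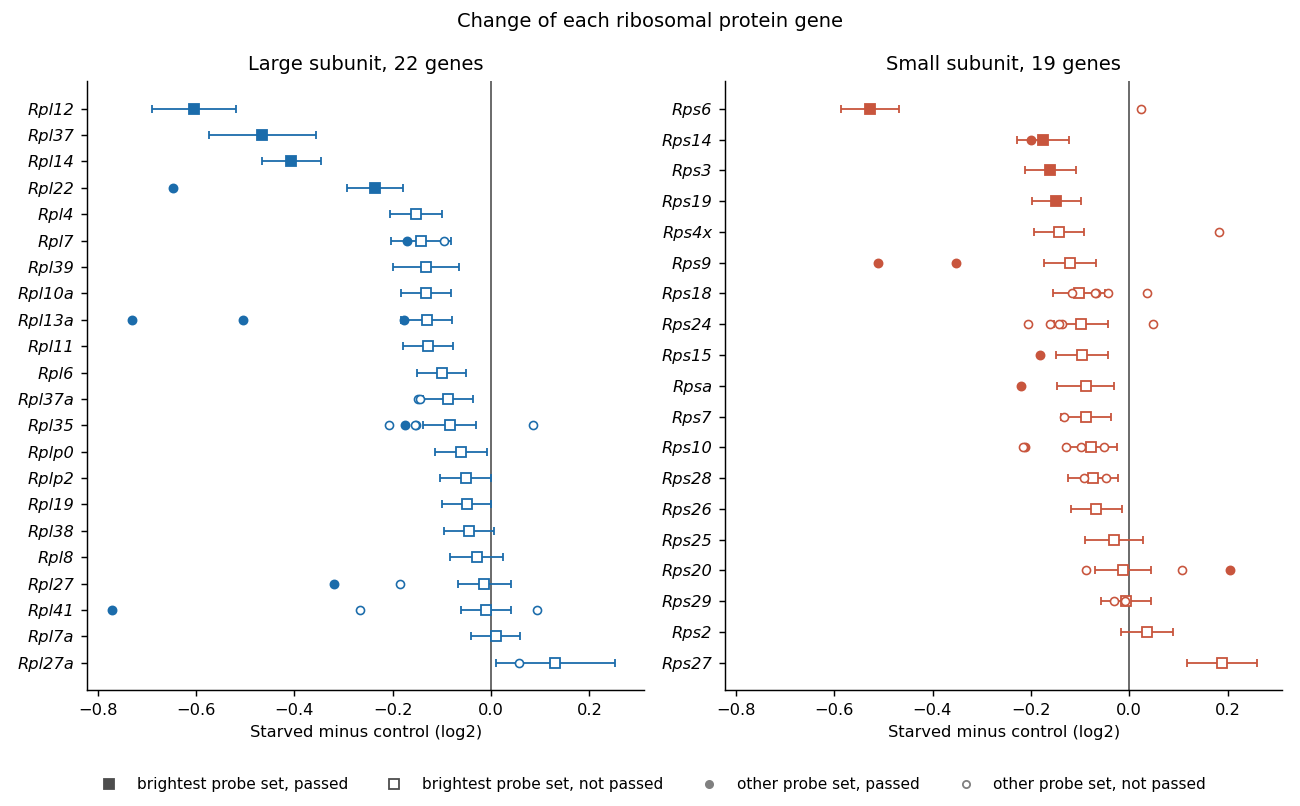
Difference between starved and control cells (log2, starved minus control) for each of the 41 ribosomal protein genes, large subunit left and small subunit right. Squares with bars are the brightest probe set and its moderated standard error, circles are other probe sets, and filled symbols passed the limma test. Most squares lie just left of 0, and the filled ones at the top run from -0.15 for Rps19 to -0.60 for Rpl12.

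In the large subunit 12 of 41 probe sets were lower (29.3%) and 0 higher, against 19.2% and 20.3% of all probe sets. A negative difference was found in 36 (87.8%, against 51.5% of all), with a median of -0.14. Rpl12, which forms the base of the stalk where elongation factors dock, had 5.60, 5.76 and 5.47 in starved arrays, against 6.13, 6.23 and 6.29 in control arrays. The groups were apart, and the difference was -0.60 ± 0.09 (limma adjusted p = 0.000873), on a probe set only slightly above the dim limit. The other stalk members measured on their own did not pass, at mean levels of 14.06 each. That is near the highest values of the arrays (14.53 to 14.58), and the room left there for a difference was not tested. Rplp0, which anchors the stalk and is widely used as a reference gene, averaged 14.03 ± 0.03 in starved and 14.09 ± 0.03 in control cells (SD, n = 3 each), a difference of -0.06 ± 0.05 (limma adjusted p = 0.416). Rplp2, one of the acidic stalk proteins, averaged 14.03 ± 0.03 in starved and 14.08 ± 0.01 in control cells (SD, n = 3 each; limma adjusted p = 0.487).

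Rpl37, a small zinc-binding protein of the large subunit, had 10.24, 10.01 and 10.04 in starved arrays, against 10.71, 10.64 and 10.34 in control arrays. It fell by 0.46 ± 0.11 (limma adjusted p = 0.0105, and 0.071 without moderation of the spread), with control array 3 nearest to the starved arrays. Rpl14 had 7.67, 7.58 and 7.61 in starved arrays, against 7.99, 8.10 and 8.00 in control arrays. The groups did not overlap, the difference was -0.41 ± 0.06 (limma adjusted p = 0.00104), and its transcript is one of those with a TOP start printed above.

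Rpl22 is a large-subunit protein that mice can live without, though their αβ T cells fail to develop, and it is known to repress its close relative Rpl22l1. Its bright probe set gave 12.29, 12.19 and 12.23 in starved arrays, against 12.44, 12.47 and 12.51 in control arrays, and its dimmer one gave 8.87, 8.72 and 8.79 in starved arrays, against 9.53, 9.43 and 9.36 in control arrays. Both fell without overlap, the first with a difference of -0.24 ± 0.06 (limma adjusted p = 0.0115) and the second with -0.65 ± 0.07 (limma adjusted p = 0.000208). Rpl22l1 moved the other way, with a rise of 0.30 ± 0.05 (limma adjusted p = 0.0027), and it was the single gene to rise among the ribosomal protein relatives measured.

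Rpl13a, which in human myeloid cells leaves the ribosome after interferon treatment to silence the translation of inflammatory mRNAs, had 4 probe sets that ranged widely. The one at a mean of 10.9 gave 10.63, 10.41 and 10.45 in starved arrays, against 11.18, 11.34 and 11.15 in control arrays, a difference of -0.73 ± 0.08 (limma adjusted p = 0.00026). A second gave 11.87, 11.89 and 11.95 in starved arrays, against 12.38, 12.43 and 12.41 in control arrays, a difference of -0.50 ± 0.05 (limma adjusted p = 0.000208). The pair at 13.4 and above were much closer to 0, with -0.18 ± 0.05 (limma adjusted p = 0.0237) and, for the brightest, -0.13 ± 0.05 (limma adjusted p = 0.0835). All 4 had every starved array below every control array, so they shared a direction and differed in size.

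**Figure D2:**
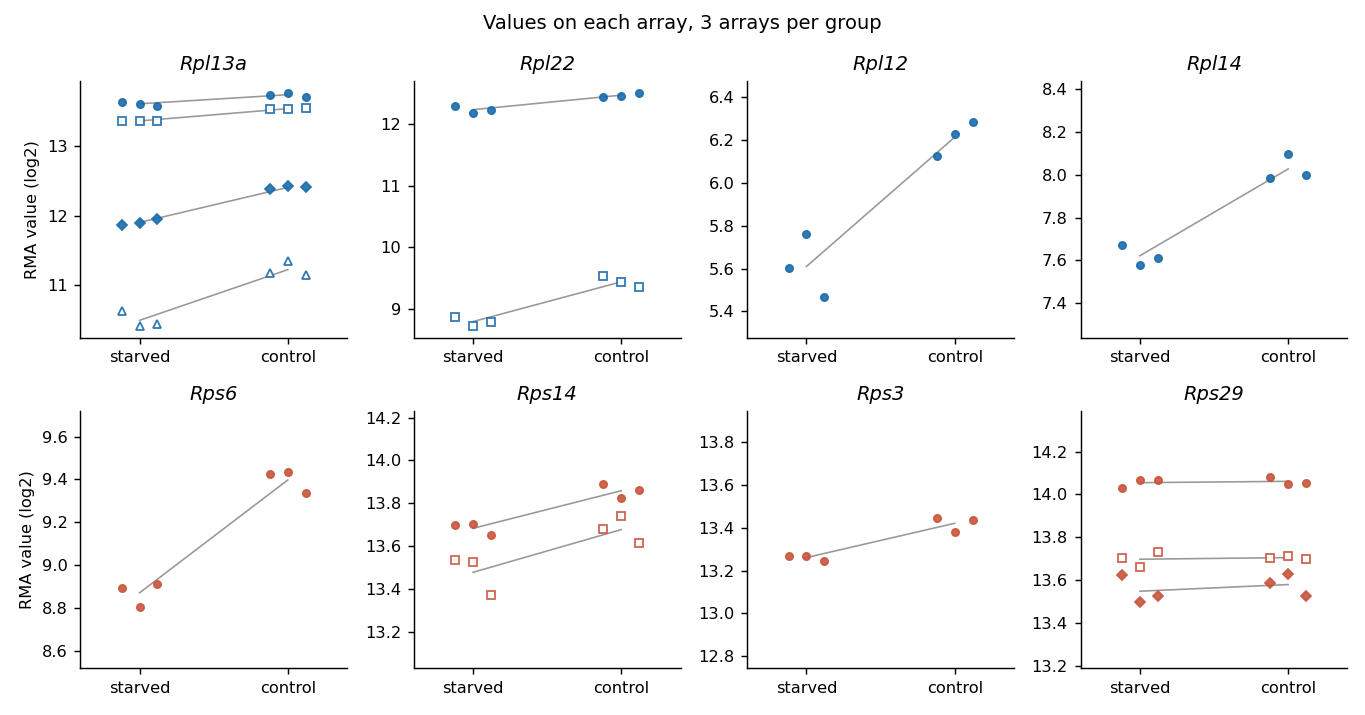
Log2 RMA values of single arrays for ribosomal protein probe sets, starved arrays left of control arrays in each panel, with a point per array, a symbol per probe set and grey lines that join the group means. Each panel has its own axis range. The groups are apart in every panel but that of Rps29, where they overlap.

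Rpl41, the smallest ribosomal protein, also gave unlike values on different probe sets. Its brightest probe set gave 14.54, 14.55 and 14.54 in starved arrays, against 14.53, 14.55 and 14.58 in control arrays, a difference of -0.01 with a 95% interval of -0.13 to 0.11. The dim probe set gave 4.57, 4.57 and 4.62 in starved arrays, against 5.49, 5.27 and 5.32 in control arrays, the lowest difference of any member at -0.77 ± 0.07 (limma adjusted p = 9.15e-05). Another bright probe set, at 13.8, differed by 0.09 ± 0.06 (limma adjusted p = 0.269), with every starved array above every control array. The remaining one, at 5.81, differed by -0.27 ± 0.11 (limma adjusted p = 0.106). The brightest probe set held the highest value of the table on each of the 6 arrays, where quantile normalization leaves little room for a difference, so its value says little about the gene.

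Other large-subunit genes did not pass by their brightest probe set. Rpl11, which with Rpl5 and 5S RNA can bind and inhibit Mdm2, averaged 13.17 ± 0.03 in starved and 13.30 ± 0.02 in control cells (SD, n = 3 each), a difference of -0.13 ± 0.05 (limma adjusted p = 0.0865). Its 95% interval ran from -0.25 to -0.01, and every starved array lay below every control array. Rpl38, needed in mouse embryos for the translation of a subset of Hox mRNAs, averaged 13.99 ± 0.02 in starved and 14.03 ± 0.02 in control cells (SD, n = 3 each; limma adjusted p = 0.538). Rpl39, a small protein of the exit tunnel, lay just above the dim limit. It averaged 5.01 ± 0.10 in starved and 5.14 ± 0.04 in control cells (SD, n = 3 each), and its difference of -0.13 did not pass. Rpl37a, among the brightest, differed by -0.09 (95% interval -0.21 to 0.03). In Rpl7, Rpl27 and Rpl35 a dimmer probe set fell, by 0.17, 0.32 and 0.17, while the brightest did not pass. The most positive large-subunit difference was that of Rpl27a at 0.13 ± 0.12 (limma adjusted p = 0.447), and its groups overlapped.

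In the small subunit 10 of 49 probe sets were lower (20.4%) and 1 higher (2.04%), against 19.2% and 20.3% of all probe sets. A negative difference was found in 41 (83.7%, against 51.5% of all), with a median of -0.09. Rps6, the protein that S6 kinases phosphorylate when mTORC1 is active, had 8.89, 8.80 and 8.91 in starved arrays, against 9.42, 9.43 and 9.34 in control arrays. The difference was -0.53 ± 0.06 (limma adjusted p = 0.000279), the largest fall among the brightest probe sets of the small subunit, and the groups were well apart. Its second probe set lay below the dim limit, at 4.39 in starved and 4.37 in control cells, and the mean of both gave -0.25. Rps6 is also the member with a TOP start and an ETS core that fell most, on a probe set at a mean of 9.13. The others with both, Rpl35, Rpl38, Rplp2, Rps10 and Rps18, were read by brightest probe sets at 13.7 to 14.1.

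The other 3 small-subunit falls were near the threshold and small. Rps14, whose partial loss in humans causes the anaemia of the 5q- syndrome, had 13.70, 13.70 and 13.65 in starved arrays, against 13.89, 13.82 and 13.86 in control arrays, a difference of -0.18 ± 0.05 (limma adjusted p = 0.0306). Rps3, which lines the mRNA entry channel, had 13.27, 13.27 and 13.25 in starved arrays, against 13.44, 13.38 and 13.44 in control arrays, a difference of -0.16 ± 0.05 (limma adjusted p = 0.0408). Rps19, the gene most often mutated in human Diamond-Blackfan anaemia, had 13.57, 13.55 and 13.57 in starved arrays, against 13.70, 13.70 and 13.73 in control arrays, a difference of -0.15 ± 0.05 (limma adjusted p = 0.0486). None of these 3 groups overlapped, yet the number of small-subunit genes that fell dropped to 1 or 2 whichever array was left out, and to 1 after a second quantile normalization or cyclic loess.

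Rps9, which sits at the entry channel beside Rps3, repeated the pattern of Rpl13a. Its brightest probe set differed by -0.12 ± 0.05 (limma adjusted p = 0.112), the middle one fell by 0.35 ± 0.10 (limma adjusted p = 0.0227) and the dim one fell by 0.51 ± 0.13 (limma adjusted p = 0.0172). Rpsa, also described as a laminin receptor, averaged 13.63 ± 0.07 in starved and 13.72 ± 0.02 in control cells (SD, n = 3 each), which differed by -0.09 (limma adjusted p = 0.275). Its other probe set, below the dim limit at 3.30, fell by 0.22 (limma adjusted p = 0.0221). Rps4x, whose human counterpart escapes X inactivation, differed by -0.14 ± 0.05 (limma adjusted p = 0.0591) on its bright probe set, with every starved array below every control array. On its other probe set, at a mean of 4.92, it differed by 0.18 ± 0.07 (limma adjusted p = 0.0665), with every starved array above every control array. In Rps10 and Rps15 1 probe set each fell, by 0.21 and 0.18.

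Few small-subunit values pointed upward. A probe set of Rps20, a protein of the subunit's head, gave 5.22, 5.25 and 5.16 in starved arrays, against 5.05, 4.88 and 5.09 in control arrays. It rose by 0.20 ± 0.07, just inside the threshold (limma adjusted p = 0.04995), and the brightest probe set of the gene differed by -0.01. Rps27, a zinc-binding protein with a TOP start, had 7.83, 7.75 and 7.98 in starved arrays, against 7.61, 7.71 and 7.67 in control arrays. Its groups were apart, but at 0.19 ± 0.07 it missed the threshold (limma adjusted p = 0.0712, 95% interval 0.02 to 0.35). Rps29 and Rps28, both very bright, differed by -0.01 (95% interval -0.12 to 0.11) and -0.07 (95% interval -0.19 to 0.04).

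The members were also set out by the brightness of their probe sets, which is a property of the probes and no measure of abundance between genes. Of 50 member probe sets at 13 or over (log2), 47 had a negative difference, 8 were lower (16.0%) and 0 higher, with a median of -0.09. At that level 7 of 62 probe sets shared with other genes were lower and 0 higher, with a median of -0.10, and of the 93 probe sets that name no ribosomal protein gene 13 were lower (14.0%) and 29 higher (31.2%), with a median of -0.02. Between 9 and 13, 9 of 18 member probe sets were lower with a median of -0.21, against 27.6% lower and 31.2% higher among those that name no ribosomal protein gene. The dimmer members did not continue this order. Between 5 and 9 the test called 2 of 10 members lower and 1 higher, and their median was -0.10. Among probe sets at that level that name no ribosomal protein gene, it called 24.9% lower and 27.1% higher. Under 5 it called 3 of 12 members lower and 0 higher, and their median was -0.01. At that level it called 5.64% lower and 4.09% higher among those that name no ribosomal protein gene. Of the 17 genes with more than 1 probe set whose mean over all arrays was above the limit, the dimmest was more negative than the brightest in 14, the exceptions being Rps18, Rps20 and Rps24. Scanner saturation, the sequence each probe matches and the position of the probes were not tested as sources of that difference. The median standard error of the 50 brightest was 0.0526 after moderation and 0.0238 from their own arrays alone.

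**Figure D3:**
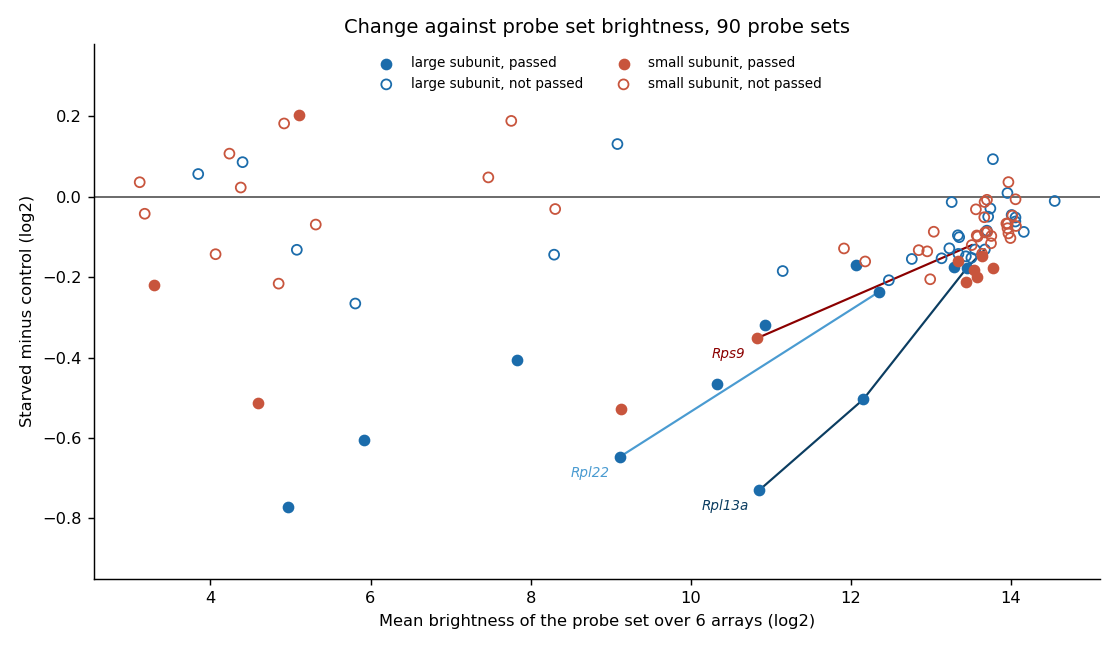
Difference (log2, starved minus control) against mean brightness over the 6 arrays (log2 RMA value) for the 90 member probe sets, blue for the large and red for the small subunit, filled where the limma test was passed. Lines join the probe sets of Rpl13a, Rpl22 and Rps9 above the dim limit, and in each the dimmer probe set lies lower. The points at 13 or over lie between -0.21 and 0.09.

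Many members are read by probes that also match related sequences. By the suffix of their names, 65 of the 90 probe sets can match several transcripts. In a fit of the 15605 probe sets without it, 7 of the 25 members were lower (28.0%) and 0 higher. Of all 15605, 18.1% were lower, and 2888 were higher. The 102 probe sets that name a ribosomal protein gene together with others were set apart from the members. Of these 96 had a negative difference (94.1%), 29 were lower (28.4%) and 2 higher (1.96%), and their median was -0.12. Among the 22434 probe sets in neither group, 51.1% had a negative difference, 19.1% were lower and 20.4% higher. Signal of pseudogene copies and of the genes themselves cannot be told apart in the 102 probe sets.

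Genes that fell were found both with and without the printed sequence features. Of the 8 genes with a TOP start 2 fell by their brightest probe set and 4 in any, with a median of -0.08, and of the 28 without it 5 fell and 11 in any, with a median of -0.10. For the ETS core the counts were 2 of 18 genes with it, at a median of -0.08, and 5 of 18 without it, at a median of -0.13. These counts describe the windows searched, and no test was made of them.

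Relatives and fusion genes outside the rule gave 9 measured genes. Of these 3 fell (33.3%) and 1 rose (11.1%), against 20.1% and 20.8% of all genes. Fau, which encodes a ubiquitin-like protein fused to a small-subunit protein, fell by 0.19, Rpl7l1 by 0.28 and Rsl24d1, a pre-ribosome factor, by 0.22. Each of these falls was lost when certain arrays were left out. Rpl7l1 missed the threshold without starved array 2 or 3 or control array 2 or 3 (limma adjusted p of 0.0504 to 0.078), and averaged -0.50 over its probe sets. Fau missed it without starved array 1 or 3 or control array 1 (0.0538 to 0.0665), and Rsl24d1 without starved array 2 or 3 (0.0592 and 0.0507). Rps27l, a relative of Rps27 induced by p53, differed by 0.09 and did not pass.

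Other mRNAs of the TOP class, chiefly translation factors, went both ways. Of 27 measured, 8 fell (29.6%) and 5 rose (18.5%), against 20.1% and 20.8% of all genes, with a median of -0.03. Eef2, the translocation factor, fell by 0.22, and the initiation factor subunits Eif3f, Eif4b and Eif3k fell by 0.41, 0.35 and 0.31. Eef1a1, the most familiar TOP mRNA, differed by -0.03 (limma adjusted p = 0.721). The rises were those of Ipo5 by 0.44, Hnrnpa1 by 0.40, Ybx1 by 0.36, Eif4a2 by 0.28 and Vim by 0.25. Averaged over their probe sets, Ipo5 gave 0.19, Hnrnpa1 0.77 and Ybx1 0.22, and Ybx1 then missed the threshold (limma adjusted p = 0.127).

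Host genes of small nucleolar RNAs, whose spliced transcripts often begin with a TOP tract and are degraded when translated, included both strong rises and falls. Of 9 measured, 5 rose (55.6%) and 2 fell (22.2%), against 20.8% and 20.1% of all genes, with a median of 0.33. Snhg5 rose by 1.34 ± 0.05 (limma adjusted p = 3.18e-06), Snhg6 by 1.19, Snhg1 by 1.02 and Rabggtb by 0.66, while Gas5 fell by 0.23 and Snhg8 by 0.60. For Snhg1 other probe sets passed in both directions, so it has no settled direction, and the mean of all its probe sets gave 0.51. Most of these hosts are noncoding, and ribosomal protein genes that host such RNAs were counted with the members.

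Among 26 regulators of ribosomal protein expression 7 fell (26.9%) and 9 rose (34.6%), against 20.1% and 20.8% of all genes. Their median was -0.02. Larp1, the TOP-binding protein, fell by 0.36 ± 0.06 (limma adjusted p = 0.00244), whereas its relative Larp1b rose by 0.87. Mycn and Myc, which drive ribosome production, fell by 0.73 and 0.22. The mean of all probe sets gave -0.30 for Mycn, and Myc missed the threshold without starved array 2 or 3 (limma adjusted p = 0.0553 and 0.0504). Gabpb1, the partner subunit of the ETS factor GABP, rose by 0.78, Sp1 by 0.76 and Eif4ebp1, the translational repressor released when mTORC1 is off, by 0.51. Gabpa, the DNA-binding subunit, differed by -0.07 and did not pass.

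Factors that escort ribosomal proteins or mature the subunits fell more often than they rose. Of 30 measured, 13 fell (43.3%) and 7 rose (23.3%), against 20.1% and 20.8% of all genes, with a median of -0.09. Rrs1, which brings the 5S particle to the pre-ribosome, fell by 1.05, Tsr1, needed for the small subunit, by 0.84, and Nip7, another maturation factor, by 0.74. Sbds, which frees the large subunit for translation, rose by 0.93.

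**Figure D4:**
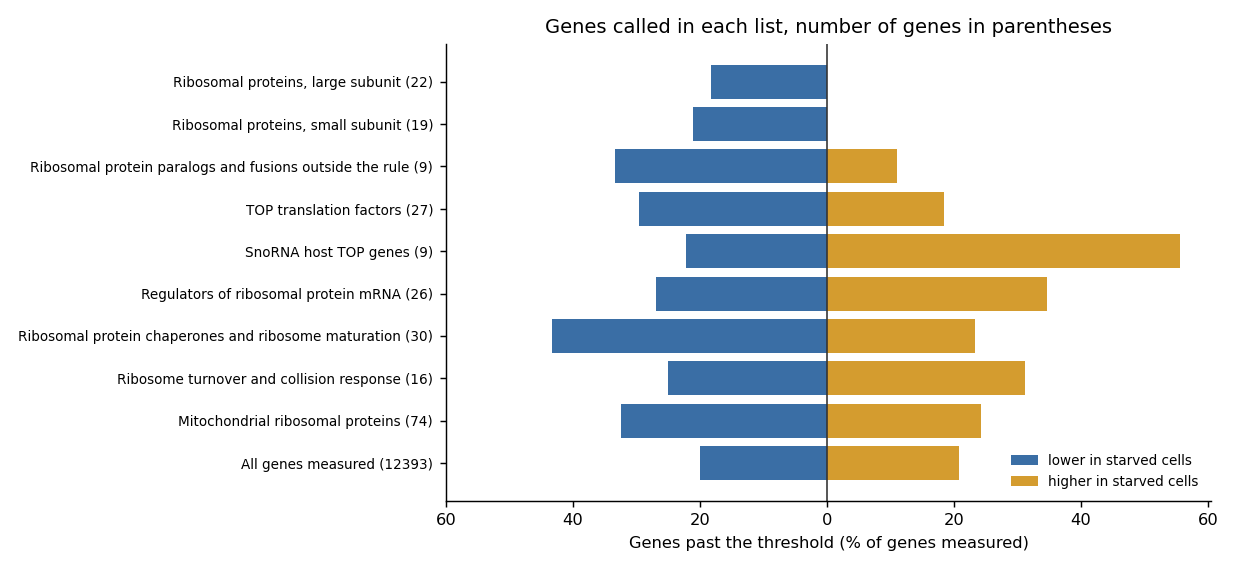
Members that passed the limma test as lower or higher, as a share of the measured members of each list (percent), for the ribosomal protein genes of both subunits and 7 related lists. The ribosomal protein genes have falls and no rises, while every related list has both.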

How the data were processed

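RNA of 3 starved and 3 control samples was hybridised to Affymetrix mouse arrays. Per the submitters' processing notes, the authors made the deposited log2 values with RMA (affy, no version given), which subtracts background, forces the arrays onto a shared distribution and combines the probes of each set. Of 22690 probe sets 64 controls were left out, and 22626 were fitted with limma 3.58.1 in R 4.3.3 (lmFit, eBayes, two-sided, Benjamini-Hochberg at 0.05). Precision is limited by the number of arrays. The fit was first tested on simulated data. Symbols came from the platform annotation, where 20380 probe sets name 1 gene, 691 several and 1555 none. The brightest probe set over all 6 arrays stands for a gene, and 5 (log2) is the limit for dim ones. The members and lists were chosen with earlier results of these data known. The genes named were the 6 largest falls and rises per subunit among those that passed, the 2 brightest that did not, some chosen for their known roles and, from each other list, up to 4 that passed with the largest change and up to 2 others. Member genes named beyond that rule were chosen after their values were seen, as were Eif4b, Eif3k, Eif4a2, Vim, Gas5, Snhg8, Eif4ebp1, Gabpa and the marker genes. Alternatives covered normalization, moderation, filters, array weights, a replicate block, gene summaries, a stricter threshold and each array left out.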

Additional observations from a re-analysis of the deposited data

How the results depend on the processing

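The median of the large-subunit genes was -0.09 and became -0.076 after a second quantile normalization, -0.11 with arrays centred on their medians, -0.064 after cyclic loess, -0.13 with the mean of all probe sets and -0.10 to -0.08 with an array left out. That of the small subunit was -0.09 and became -0.058, -0.11, -0.058, -0.11 and -0.10 to -0.08 in that order, and -0.079 without multi-transcript probe sets, those whose suffix marks several targets. Large-subunit genes that fell numbered 4, against 7 centred, 8 without dim probe sets, 12 with an intensity trend and robust moderation, 10 without moderation, 8 with the mean of all probe sets and 2 at a threshold of 0.01. Small-subunit genes that fell numbered 4, against 1 after either renormalization, 13 with the trend, 9 without moderation, 2 without multi-transcript probe sets, 1 with the replicate block, 7 with the mean, 1 at 0.01 and 1 to 2 with an array left out. Genes that rose numbered 0, against 1 without dim probe sets, 1 with the trend and 0 to 1 with an array left out. Large-subunit probe sets that fell numbered 12, against 19 without dim ones, 25 with the trend, 4 without multi-transcript ones, 6 at 0.01 and 8 to 13 with an array left out. Those of the small subunit numbered 10, against 6 after the second quantile step, 5 after loess, 26 with the trend, 3 without multi-transcript ones, 5 with the block, 1 at 0.01 and 2 to 5 with an array left out. The 1 that rose became 2 after the second quantile step, 3 without dim ones, 2 with the trend, 0 to 1 with an array left out, and 0 when centred, unmoderated, blocked, without multi-transcript ones or at 0.01. Calls over all probe sets were 4344 lower and 4589 higher, against 2828 and 2888 of the 15605 without multi-transcript ones. Without those, TOP-class falls were 4, mitochondrial rises 10, turnover rises 3, snoRNA host rises 3 and rises among relatives 0. At 0.01, falls were 5 in the TOP class, 3 among regulators, 1 among snoRNA hosts and 0 among relatives. Falls among relatives were 1 with the block and 0 to 2 with an array left out, and their rises 2 with the trend or without moderation. With an array left out, the lowest counts were 6 TOP-class, 5 to 6 regulator and 1 to 2 snoRNA host falls. Rises among maturation factors were 3 with the mean of all probe sets. Without multi-transcript probe sets Map3k20 reversed to -0.28 and Mrpl1 to -0.12, each then read by another probe set. In the fit with the replicate number as a block 13 of the 90 probe sets were lower and 0 higher. Same-numbered arrays deviated together at correlations of -0.09, 0.01 and -0.01, so the numbers were not taken to pair the samples. In the settings at 0.05 that held them, 8 probe sets stayed lower, those of Rpl12, Rpl14, Rps6 and Rpl41 (dim), and 2 each of Rpl13a and Rpl22. The fit without multi-transcript probe sets did not hold 3 of these, both of Rpl13a and 1 of Rpl22, and that of Rpl41 passed the filter on dim probe sets through its control mean alone. The cause of the moved counts was not tested.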

Other observations

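Mitochondrial ribosomal proteins, which are made in the cytosol and build the organelle's own ribosomes, changed in both directions. Of 74 genes measured, 24 fell (32.4%) and 18 rose (24.3%), against 20.1% and 20.8% of all genes, with a median of -0.04. Mrpl41 fell by 1.05, while Mrps30 rose by 0.75 and Mrpl47 by 0.63. Single mitochondrial members thus moved further than any cytosolic one read by its brightest probe set. Mrpl1 rose by 0.68 on the brightest of its 3 probe sets, but a second gave -0.12 and neither of the others passed. Their mean was 0.16.

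Factors of ribosome rescue and turnover gave 16 measured genes. Of these 4 fell (25%) and 5 rose (31.25%), against 20.1% and 20.8% of all genes. Pelo, which splits stalled ribosomes, fell by 0.70 and Usp10, a deubiquitinase that acts on small-subunit proteins, by 0.55. Gtpbp2, a partner of Pelo in rescue, rose by 0.79. Map3k20, the kinase that senses colliding ribosomes, rose by 0.68 on its brightest probe set and fell on another, so it has no settled direction.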
